A study of Mus musculus with 8 samples.

Results

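Expression of 10 genes for matricellular proteins and the neural extracellular matrix was examined in mouse small cell lung cancer (SCLC) cultures with and without forced Nfib. The genes were taken by symbol from a named list: the thrombospondins Thbs1 and Thbs2, the tenascins Tnc and Tnr, the lecticans Vcan, Ncan and Bcan, the reelin gene Reln, and the testicans Spock1 and Spock2. All 10 were among the 22691 genes of the read count table, and 7 of them were among the 13380 genes that passed the filter on low counts. Thbs2, Tnc and Bcan did not pass it. RNA-seq was done on 8 libraries from 4 cultures, each profiled once with an empty vector and once with overexpression of mouse Nfib, which encodes a nuclear factor I protein, a transcription factor that binds DNA at TTGGC sequences. SCLC is an aggressive neuroendocrine lung tumor. All cultures came from primary lung tumors of mice with the invCAG-Mycl-Luc transgene, in which the broadly active CAG promoter drives Mycl, and with the genotype Rb1-/-, on a mixed FVB/n; 129/Ola background, so that empty vector and Nfib libraries alike carried these alleles. The sample descriptions name 3 lines: Lmyc1 (pair 1, labelled old), Lmyc3 (pair 2, old, and pair 3, new) and Lmyc5 (pair 4, new). The words old and new, the age of the mice, the promoter of the vectors and whether a culture was a clone are not given in those labels.

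Matricellular proteins are secreted into the matrix but act on cells rather than as scaffold: thrombospondins and tenascins bind integrins and other receptors and change adhesion, migration and vessel growth. In the brain, the matrix is built on hyaluronan, to which the chondroitin sulfate proteoglycans of the lectican family bind at one end, while tenascin-R ties them together at the other, as in perineuronal nets. Reelin is a large secreted glycoprotein that positions migrating neurons through its receptors Lrp8 and Vldlr and the adaptor Dab1, and testicans are secreted proteoglycans that are most abundant in brain.

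Library totals lay between 21815264 and 29934021 counts, so that 3 counts, up to which a count of 0 is uncertain, equalled between 0.102 and 0.142 CPM (counts-per-million, here on TMM-scaled library sizes). Nfib was 17.8-fold, 11.7-fold, 17.99-fold and 7.37-fold higher in the Nfib library of pairs 1 to 4, and its lowest Nfib library (1281 CPM) lay above its highest empty vector library (486.5 CPM). The labelled cell type was checked with 10 neuroendocrine markers, all of which reached 1 CPM or more in at least 1 library of each arm and summed to between 2183 and 5528 CPM per library. Pairs 2 and 3 are labelled as 1 line, but these cultures differed in 59.9% of the genes tested (edgeR, adjusted p under 0.05), the highest share among the 6 differences between cultures, while Lmyc3 new and Lmyc1 old gave the lowest share, 38.4%. Each pair is therefore described as a culture of its own.

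Promoter sequence is shown for Reln and Tnr, which passed the test of Nfib described further on. It is also shown for Spock1 and Spock2, which did not pass it. Their windows held matches to the nuclear factor I motif, printed in capitals, as did windows of Thbs2, Tnc and Ncan, which are not shown. RefSeq promoter windows (GRCm38.p6, the 250 bases before the transcription start) were found for 9 of the 10 genes, and Thbs1 was not among them. Both strands were searched for the 5-base element TTGGC, which reads GCCAA on the other strand, and for the full palindrome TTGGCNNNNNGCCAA, whose ends are 2 such elements. The 4 windows are from Reln (chr5:22344706-22344955, minus strand), Tnr (chr1:159523519-159523768, plus strand), Spock2 (chr10:60106007-60106256, plus strand) and Spock1 (chr13:57908333-57908582, minus strand), each written 5′ to 3′ on the gene's strand. The RefSeq start of Tnr lies upstream of the start that the count table gives for this gene (159737510 on chromosome 1), so its window does not adjoin the gene model that was counted. The Spock2 window runs past the start in the count table (60106219 on chromosome 10), so that its last bases lie within the counted gene.
Reln: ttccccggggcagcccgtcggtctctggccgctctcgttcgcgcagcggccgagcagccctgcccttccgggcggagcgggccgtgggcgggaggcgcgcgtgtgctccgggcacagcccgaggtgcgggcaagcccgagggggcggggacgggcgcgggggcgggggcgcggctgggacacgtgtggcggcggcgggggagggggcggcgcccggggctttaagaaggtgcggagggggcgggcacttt
Tnr: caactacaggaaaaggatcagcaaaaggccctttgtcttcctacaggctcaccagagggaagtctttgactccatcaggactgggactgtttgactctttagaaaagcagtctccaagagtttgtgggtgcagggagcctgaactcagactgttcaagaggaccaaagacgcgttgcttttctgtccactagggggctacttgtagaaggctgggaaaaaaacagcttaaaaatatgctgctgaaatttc
Spock2: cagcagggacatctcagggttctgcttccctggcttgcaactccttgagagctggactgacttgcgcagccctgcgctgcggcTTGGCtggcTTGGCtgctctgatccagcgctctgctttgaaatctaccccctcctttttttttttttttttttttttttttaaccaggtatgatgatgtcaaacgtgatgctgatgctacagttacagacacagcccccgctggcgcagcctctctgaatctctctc
Spock1: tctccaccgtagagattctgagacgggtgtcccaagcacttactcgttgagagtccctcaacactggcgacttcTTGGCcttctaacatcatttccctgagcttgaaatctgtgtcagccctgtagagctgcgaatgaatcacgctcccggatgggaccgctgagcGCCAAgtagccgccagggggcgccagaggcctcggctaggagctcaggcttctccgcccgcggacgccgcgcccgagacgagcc
The Spock2 window held TTGGC at 167 and at 158 bases before the start, and the Spock1 window held TTGGC at 176 and GCCAA at 84 bases before it. No such element lay in the Reln window or in the Tnr window at the RefSeq start. The Reln window was 80% G or C with 37 CpG dinucleotides, against a median G and C content of 52.4% over all windows. At least 1 element was found for 5 of the 9 genes (Thbs2, Tnc, Ncan, Spock1 and Spock2). These 9 genes had 10 windows, as Tnc had 2, of which 1 held an element. Counted by window and not by gene, 41.5% of all 32851 windows in the reference held at least 1, 11.5% held at least 2 and 0.0365% held the full palindrome. No window of the 9 genes held the full palindrome. These are matches of letters in short windows and do not show binding.

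Spock2, which encodes testican-2, had the highest level per exon length of the 10 genes in every library. Levels were compared between genes as mean CPM per kilobase of exon over the 8 libraries, among 22423 genes with a known exon length. Spock2 stood at 101.5 CPM per kilobase, with 98.7% of genes below it. Its lowest library, empty vector of pair 3 with 29.6 CPM per kilobase, was also the library in which Thbs1 came nearest to it (26.9 CPM per kilobase). Ncan (7.01), Thbs1 (5.29), Spock1 (4.79) and Tnr (4.10 CPM per kilobase) formed a middle group with between 61.7% and 70% of genes below them. Vcan (0.518) and Reln (0.385 CPM per kilobase) were lower, and Bcan (0.195), Tnc (0.172) and Thbs2 (0.00709 CPM per kilobase) were lowest. The 10 genes summed to between 281.2 CPM (Nfib library of pair 3) and 2009 CPM (Nfib library of pair 2), and Spock2 alone made up between 39.7% and 86.5% of that sum. The plot of levels per exon length shows the 7 genes of sufficient count in each culture.

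**Figure D1:**
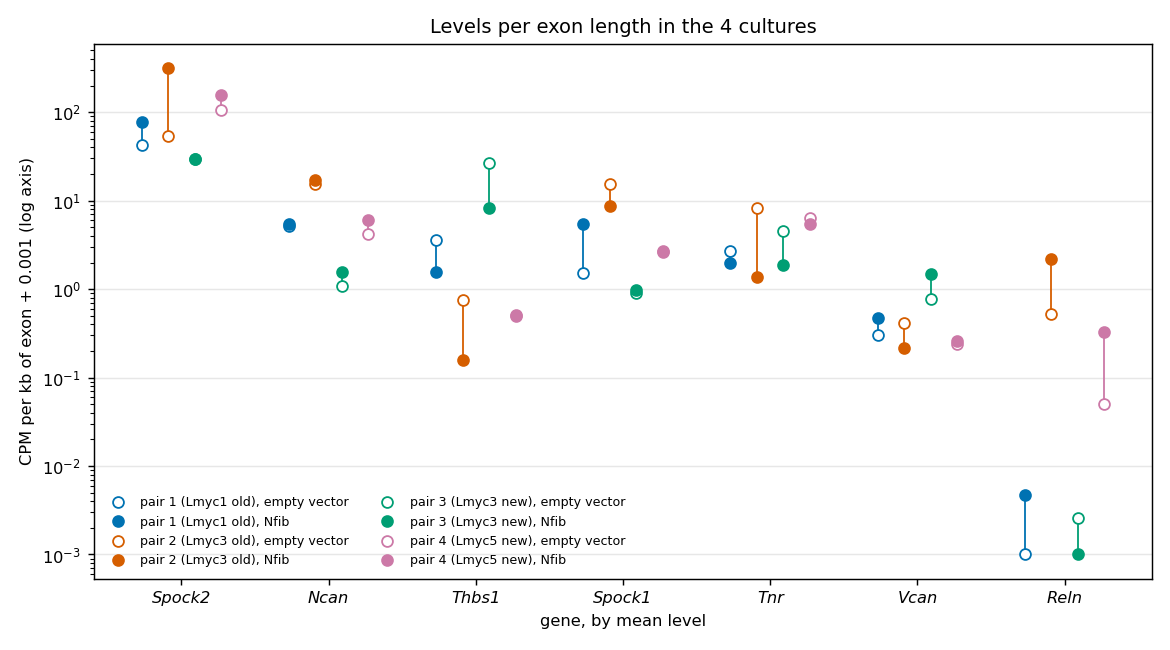
Level of the 7 genes that passed the low-count filter, in CPM per kilobase of exon plus 0.001 on a log axis, ordered by their mean over the 8 libraries; open circles are empty vector libraries, filled circles Nfib libraries, each line joins the 2 libraries of a culture, and colours are the 4 cultures. Spock2 lies above the other genes in every library, while Thbs1 is highest in pair 3 (Lmyc3 new) and Reln, Ncan and Spock1 are highest in pair 2 (Lmyc3 old).

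Within pairs, 3 of the 7 genes tested passed the paired DESeq2 test of Nfib against empty vector (adjusted p under 0.05): Thbs1 and Tnr fell and Reln rose. Over all genes tested, 4.06% passed it, 1.86% higher and 2.20% lower. In the text, rose and fell refer to this test, whose log2 fold changes are given with their standard error. EdgeR's quasi-likelihood test without the pairing, the first test of the design, called 0 of the 7 genes, and it called 0% of all genes. At an unadjusted p under 0.05 it had 0 of the 7 genes and 83 of the 13380. With the pair as a block, edgeR also called 0% of genes and 0 of the 7, of which 4 (Thbs1, Tnr, Ncan and Reln) had an unadjusted p under 0.05, as did 2012 genes in all. The median log2 fold change was 0.24 over the 7 genes and -0.0062 over all genes tested. For all 10 genes the range over the 4 empty vector libraries overlapped that over the 4 Nfib libraries. The share of all genes with such an overlap was not counted, so it is not read as particular to these genes. Differences with Nfib are therefore described within cultures.

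**Figure D2:**
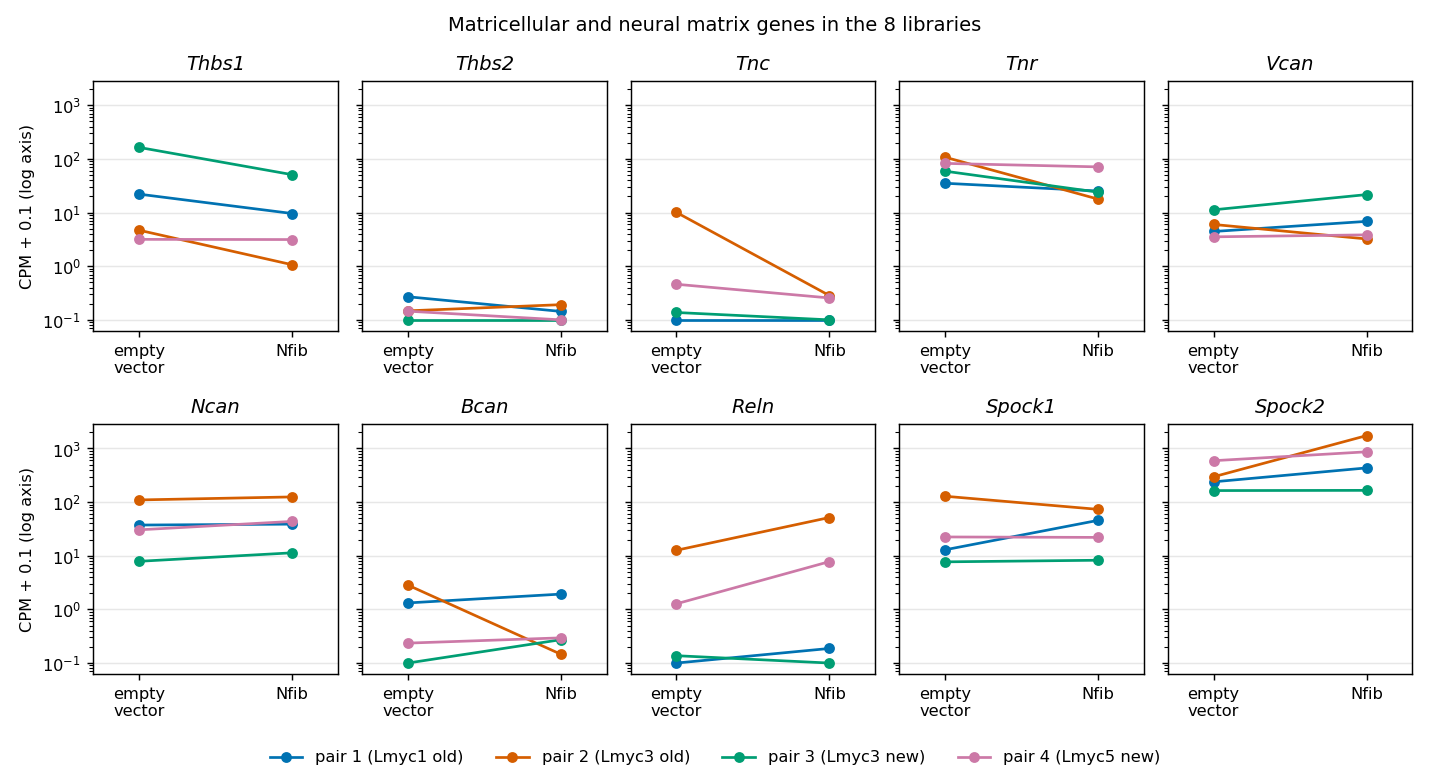
Each panel plots 1 gene in the 8 libraries, as CPM plus 0.1 on a shared log axis, with the empty vector library of a pair on the left joined to its Nfib library on the right and the 4 pairs in colour. Lines for Thbs1 slope down in pairs 1 to 3 and are level in pair 4, lines for Tnr slope down in all 4 pairs, and those for Reln slope up steeply in pairs 2 and 4.

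Thbs1 (ENSMUSG00000040152, chromosome 2, 118111876 to 118127133, GRCm38) encodes thrombospondin-1, which inhibits vessel growth and activates latent TGF-beta. In pair 1 it went from 21.9 CPM with empty vector to 9.49 CPM with Nfib, and in pair 2 from 4.58 to 0.964 CPM. In pair 3, the culture with by far the highest level, it went from 163.5 to 50.7 CPM, and in pair 4 it stood at 3.07 and 3.04 CPM. The level was thus lower with Nfib in 3 cultures and nearly equal in Lmyc5, and the arms overlap, with wide differences between cultures (169.6-fold between the highest and the lowest library). The Nfib library was 2.31-fold lower in pair 1 (95% counting interval 1.98 to 2.71), 4.75-fold lower in pair 2 (2.94 to 8.02) and 3.22-fold lower in pair 3 (3.02 to 3.44), whereas in pair 4 the interval (0.718 to 1.415) included no difference. Thbs1 fell by 1.29 ± 0.32 on the log2 scale (SE, DESeq2 adjusted p of 0.00425), with arm means of 48.3 ± 77.3 CPM (SD, n = 4) and 16.1 ± 23.4 CPM (SD, n = 4). The paired edgeR test gave an unadjusted p of 0.00782 and an adjusted p of 0.210. Without pair 3 the DESeq2 adjusted p was 0.369. In these bulk libraries, fewer cells that express a gene and less RNA of it per cell cannot be told apart.

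Thbs2 (ENSMUSG00000023885, chromosome 17, 14665500 to 14694262), which encodes the closely related thrombospondin-2, had 10 counts in all 8 libraries together. It had 5 counts with empty vector and 1 with Nfib in pair 1, 1 and 2 in pair 2, 0 and 0 in pair 3, and 1 and 0 in pair 4. At this depth no difference was detectable, and the pair with more than 3 counts gave a ratio whose counting interval ran from 184-fold lower to 2.30-fold higher with Nfib.

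Tnr (ENSMUSG00000015829, chromosome 1, 159737510 to 159924397) encodes tenascin-R, a tenascin that is made mainly in the nervous system. It went from 35.1 CPM with empty vector to 25.1 CPM with Nfib in pair 1 and from 107.6 to 17.7 CPM in pair 2. In pair 3 it went from 59.0 to 23.9 CPM and in pair 4 from 82.4 to 70.9 CPM. All 4 Nfib libraries were lower than their own empty vector library, and the Nfib library of pair 4 lay among the empty vector values. The difference was 6.07-fold in pair 2 (counting interval 5.45 to 6.78), 2.47-fold in pair 3 (2.24 to 2.73), 1.40-fold in pair 1 (1.26 to 1.55) and 1.16-fold in pair 4 (1.09 to 1.24). Tnr fell by 1.14 ± 0.36 on the log2 scale (SE, DESeq2 adjusted p of 0.0382), from 71.0 ± 31.1 CPM (SD, n = 4) to 34.4 ± 24.6 CPM (SD, n = 4). This call was near the threshold: with total-count scaling the DESeq2 adjusted p was 0.0526, and it held in 1 of 4 fits without a pair, with adjusted p of 0.355, 0.0930 and 0.824 without pairs 1, 2 and 3 and 0.00711 without pair 4. The paired edgeR test gave an unadjusted p of 0.0341 and an adjusted p of 0.296.

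Tnc (ENSMUSG00000028364, chromosome 4, 63959785 to 64047015) encodes tenascin-C, the form found in developing tissue, wounds and tumor stroma. It had 211 counts (9.96 CPM) with empty vector and 4 counts (0.184 CPM) with Nfib in pair 2. The other cultures held almost none: 0 and 0 counts in pair 1, 1 and 0 in pair 3, and 8 and 4 in pair 4. Of the 228 counts of this gene in the data set, 211 were thus in the empty vector library of Lmyc3 old, and its Nfib library was 54.3-fold lower, with a counting interval of 20.9-fold to 201-fold. This is 1 pair, and counting error is the only error that could be estimated. In a DESeq2 fit without the filter, Tnc had a log2 fold change of -2.56 ± 1.31 (SE, adjusted p of 0.347).

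Ncan (ENSMUSG00000002341, chromosome 8, 70093085 to 70120873) encodes neurocan, a lectican of the nervous system. It went from 37.3 CPM with empty vector to 38.7 CPM with Nfib in pair 1, and from 109.7 to 124.9 CPM in pair 2. In pair 3 it went from 7.78 to 11.25 CPM and in pair 4 from 30.3 to 43.6 CPM. The Nfib library was the higher one in all 4 pairs, by 1.04-fold, 1.14-fold, 1.45-fold and 1.44-fold, and beyond counting error in pairs 2, 3 and 4. The paired log2 fold change of 0.31 ± 0.13 (SE, DESeq2) had an adjusted p of 0.213, and the paired edgeR test gave an unadjusted p of 0.0232 and an adjusted p of 0.266. Differences between cultures were larger than those within them, with 16.1-fold between the highest and the lowest library.

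Vcan (ENSMUSG00000021614, chromosome 13, 89655312 to 89742509) encodes versican, the lectican that occurs widely outside the brain. It stood at 4.34 CPM with empty vector and 6.75 CPM with Nfib in pair 1, and at 5.90 and 3.12 CPM in pair 2. In pair 3 the values were 11.15 and 21.5 CPM, and in pair 4 they were 3.43 and 3.74 CPM. The direction differed among cultures: the Nfib library was 1.56-fold higher in pair 1 (counting interval 1.22 to 1.98), 1.93-fold higher in pair 3 (1.67 to 2.23) and 1.89-fold lower in pair 2 (1.40 to 2.58). The paired log2 fold change was 0.21 ± 0.36 (SE, DESeq2 adjusted p of 0.908).

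Bcan (ENSMUSG00000004892, chromosome 3, 87987531 to 88000356) encodes brevican, a brain lectican. It had 36 counts with empty vector and 42 with Nfib in pair 1 (1.22 and 1.83 CPM), and 58 counts and 1 count in pair 2 (2.74 and 0.0459 CPM). It had 0 and 4 counts in pair 3 and 3 and 5 counts in pair 4. Counts above 5 were thus found only in cultures labelled old, and in pair 2 the Nfib library was 59.7-fold lower with a wide counting interval of 10.3-fold to 2396-fold. Pair 1 showed no such difference, the interval of its ratio running from 0.938 to 2.41. Without the filter, DESeq2 gave a log2 fold change of 0.23 ± 1.35 (SE, adjusted p of 0.980). In pair 2 Tnc, Bcan and Tnr were thus all lower with Nfib, and in the same pair the summed neuroendocrine markers were 3703 CPM with empty vector and 2183 CPM with Nfib. The part of that difference in the values of these 3 genes was not tested.

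Reln (ENSMUSG00000042453, chromosome 5, 21884454 to 22344702) went from 12.6 CPM with empty vector to 51.5 CPM with Nfib in pair 2 (266 and 1123 counts). In pair 4 it went from 1.17 to 7.67 CPM (26 and 197 counts). In pairs 1 and 3 it was at the limit of detection, with 0 and 2 counts and with 1 count and 0 counts. Both cultures with measurable Reln thus had more of it with Nfib, 4.11-fold more in pair 2 (counting interval 3.59 to 4.71) and 6.55-fold more in pair 4 (4.34 to 10.3). Reln rose by 2.27 ± 0.44 on the log2 scale (SE, DESeq2 adjusted p of 4.21e-05), with arm means of 3.44 ± 6.10 CPM (SD, n = 4) and 14.8 ± 24.7 CPM (SD, n = 4). The rise rests on 2 of the 4 cultures, Lmyc3 old and Lmyc5 new, because without either of them Reln did not pass the low-count filter. Without pair 1 and without pair 3 the DESeq2 adjusted p was 0.0142 and 1.52e-05. The paired edgeR test gave an unadjusted p of 0.00105 and an adjusted p of 0.156, and its bias-adjusted form an adjusted p of 0.0365.

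Spock2 (ENSMUSG00000058297, chromosome 10, 60106219 to 60135198) encodes testican-2, a secreted proteoglycan of the SPARC family. It went from 239 CPM with empty vector to 434 CPM with Nfib in pair 1 and from 297 to 1737 CPM in pair 2. In pair 3 it stood at 164.0 and 165.5 CPM, and in pair 4 it went from 592 to 866 CPM. Spock2 was higher with Nfib beyond counting error in pairs 1, 2 and 4, by 1.82-fold (1.76 to 1.88), 5.86-fold (5.70 to 6.02) and 1.46-fold (1.43 to 1.497), while in pair 3 the interval of 0.966 to 1.054 included no difference. The size of the difference varied among cultures. The paired log2 fold change of 0.96 ± 0.51 (SE, DESeq2) had an adjusted p of 0.389, and the arm means were 323 ± 187 and 801 ± 688 CPM (SD, n = 4 each).

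Spock1 (ENSMUSG00000056222, chromosome 13, 57421195 to 57908314) encodes testican-1. It went from 12.8 CPM with empty vector to 45.6 CPM with Nfib in pair 1, and from 128.6 to 73.2 CPM in pair 2. In pair 3 the values were 7.60 and 8.15 CPM, and in pair 4 they were 22.3 and 21.9 CPM. The 2 cultures labelled old thus differed in opposite directions, 3.56-fold higher with Nfib in pair 1 (3.16 to 4.01) and 1.76-fold lower in pair 2 (1.65 to 1.87), and the cultures labelled new showed no difference beyond counting error. The paired log2 fold change was 0.24 ± 0.37 (SE, DESeq2 adjusted p of 0.896).

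Among the genes that passed the low-count filter and had counts in both libraries of a pair, differences of more than 2-fold between the arms were counted by culture. In pair 2 there were 4 of 7 (Thbs1, Tnr, Reln and Spock2), against 9.94% of all such genes. The numbers were 2 of 6 in pair 1 (Thbs1 and Spock1), 2 of 6 in pair 3 (Thbs1 and Tnr) and 1 of 7 in pair 4 (Reln), against 4.77%, 5.91% and 6.38% of genes. Of the 9 genes with a ratio in pair 2, including those below the filter, 3 were higher (Ncan, Reln and Spock2) and 6 lower with Nfib (Thbs1, Tnc, Tnr, Vcan, Bcan and Spock1), all beyond counting error. The interval plot of within-pair changes shows that the direction was shared by all 4 pairs for Tnr and Ncan, while Vcan and Spock1 had pairs on both sides of 0 beyond counting error.

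**Figure D3:**
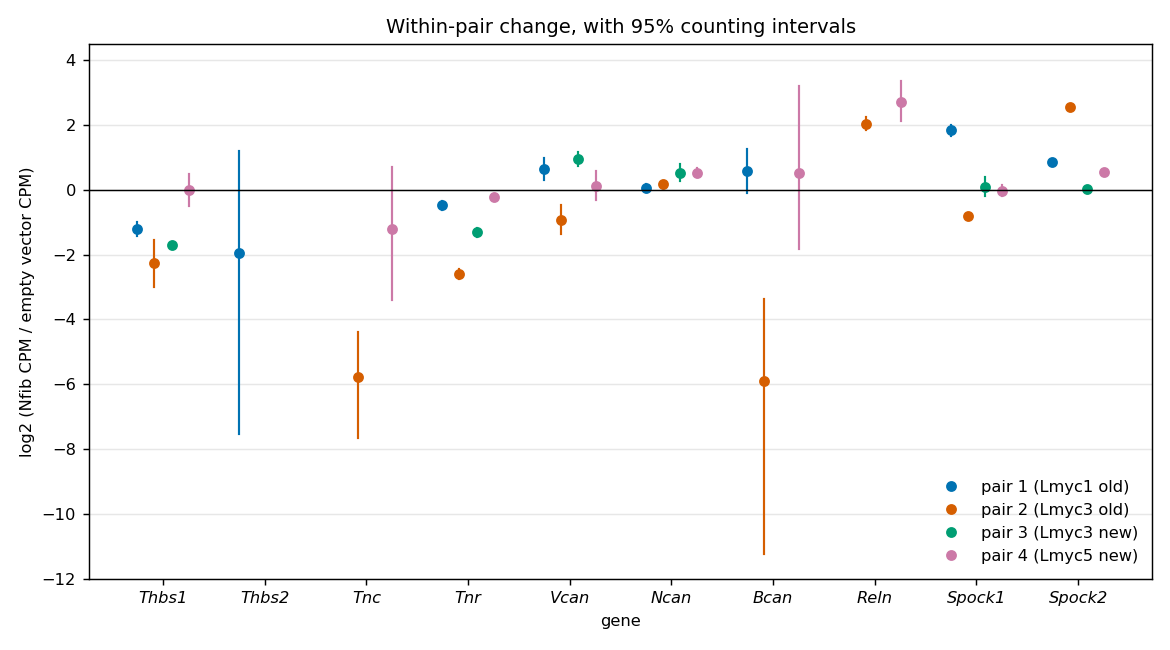
Log2 ratio of Nfib CPM to empty vector CPM in each pair (points, coloured by pair) with 95% counting intervals (vertical lines) for the 10 genes; the horizontal line marks no difference, and pairs with both libraries at or under 3 counts or with a count of 0 have no point. Tnc and Bcan in pair 2 have the lowest ratios, Reln in pair 4 and Spock2 in pair 2 the highest, and intervals for genes of few counts are wide.

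Levels differed between the 4 cultures for 6 of the 7 genes tested, all but Tnr, in an edgeR F test that used the 2 arms of a culture as its repeats (adjusted p under 0.05), a test that 76.7% of all genes passed. The share among these genes is thus close to that among all genes. Adjusted p in this edgeR test were 0.000619 for Thbs1, 0.0162 for Vcan, 0.000150 for Ncan, 0.000224 for Reln, 0.00951 for Spock1, 0.0418 for Spock2 and 0.173 for Tnr. A DESeq2 likelihood ratio test called Tnr too, and 10423 of all genes. Without pair 3 the edgeR test called 3 (Thbs1, Ncan and Reln) of the 8 genes then tested, and 7792 of all genes passed, against 10256 with all pairs. The p-values measure differences between these 4 cultures, not between tumors. Reln was tested only because of its counts in Lmyc3 old and Lmyc5 new, so its call between cultures was favoured by the filter.

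Thbs1 and Vcan had their highest mean level over both arms in Lmyc3 new. For Thbs1 the order was Lmyc3 new (107.1 CPM), Lmyc1 old (15.7), Lmyc5 new (3.05) and Lmyc3 old (2.77 CPM), where the first 2 steps passed (edgeR adjusted p of 0.00560 and 0.0123) and the last did not (0.524). For Vcan, Lmyc3 new (16.3 CPM) differed from Lmyc1 old (5.54 CPM, edgeR adjusted p of 0.0397), and neither that culture and Lmyc3 old (4.51 CPM) nor Lmyc3 old and Lmyc5 new (3.58 CPM) differed beyond their spread (0.684 and 0.535).

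Ncan, Reln, Spock1 and Spock2 had their highest mean level in Lmyc3 old. Ncan stood at 117.3 CPM there, above Lmyc1 old (38.01 CPM, edgeR adjusted p of 0.000672) and Lmyc5 new (37.0 CPM), which did not differ beyond their spread (0.743), and Lmyc3 new was lowest (9.52 CPM, 0.000475 for the step from Lmyc5 new). Reln was measurable in Lmyc3 old (32.1 CPM) and Lmyc5 new (4.42 CPM, edgeR adjusted p of 0.00225 for this step). It was near 0 in Lmyc1 old (0.0435 CPM, 0.00136 for the step from Lmyc5 new) and Lmyc3 new (0.0185 CPM, 0.716). Reln passed the low-count filter only through the cultures where it was high, so these adjusted p add no separate support. Spock1 was at 100.9 CPM in Lmyc3 old and 29.2 CPM in Lmyc1 old (edgeR adjusted p of 0.0452), while the steps to Lmyc5 new (22.1 CPM) and Lmyc3 new (7.87 CPM) did not pass (0.676 and 0.0941). No neighbouring pair of cultures differed beyond its spread for Spock2 (1017 CPM in Lmyc3 old, 729 in Lmyc5 new, 336 in Lmyc1 old and 165 in Lmyc3 new, edgeR adjusted p of 0.793, 0.141 and 0.260). The same held for Tnr (76.7 CPM in Lmyc5 new, 62.7 in Lmyc3 old, 41.4 in Lmyc3 new and 30.1 in Lmyc1 old, edgeR adjusted p of 0.354, 0.548 and 0.678).

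Lmyc3 old and Lmyc3 new, which carry 1 line name, differed in 6 of the 7 genes (edgeR, against 59.9% of all genes). Lmyc3 new had more Thbs1 and Vcan, by 5.28 and 1.79 on the log2 scale (edgeR adjusted p of 0.000534 and 0.0183). It had less Ncan (-3.64, adjusted p of 8.02e-05), Reln (-10.28, 0.000222), Spock1 (-3.72, 0.00439) and Spock2 (-2.26, 0.0212). The fitted value of Reln depends on a culture with 1 count in 2 libraries and is not a bound. The limit set by the low-count filter also applies to this call of Reln. Tnr did not pass (-0.41, 0.548). The other 5 differences between cultures, which share libraries with this one, called 4 of the 7 genes between Lmyc3 old and Lmyc1 old (48.4% of all genes), 3 between Lmyc3 new and Lmyc1 old (38.4%), 2 between Lmyc5 new and Lmyc1 old (46.6%), 3 between Lmyc5 new and Lmyc3 old (50.2%) and 5 between Lmyc5 new and Lmyc3 new (45.8%).

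Whether the change with Nfib differed between cultures labelled old and new was tested with an interaction term. EdgeR with the pair as a block called 0 of the 7 genes and 0% of all genes, with 1 of the 7 (Ncan, 0.40 larger on the log2 scale in the cultures labelled new, unadjusted p of 0.0282) and 405 of all genes at an unadjusted p under 0.05. DESeq2 called 0 of the 7 and 7 of all genes. For Spock2 the DESeq2 difference between new and old was -1.42 ± 0.84 on the log2 scale (SE, adjusted p of 0.9997).

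Over 6 lists of genes that act with these proteins or belong to their families, 3 of 61 tested genes (4.92%) passed the same test, a share near the 4.06% of all genes. Of 9 genes of the reelin pathway, all 9 were tested and 0 passed the paired DESeq2 test, with a median log2 fold change of -0.03. Its most abundant gene, Pafah1b1, which acts downstream in nuclear movement, had 558 ± 41.8 CPM with empty vector and 561.8 ± 91.25 CPM with Nfib (SD, n = 4 each). The receptors and the adaptor, chosen after their values were seen, were present in the cultures with and without Reln. Lrp8 ranged from 64.4 to 319 CPM, Vldlr from 15.2 to 94.7 CPM and Dab1 from 6.94 to 61.4 CPM over the 8 libraries, and DESeq2 adjusted p for the 3 genes were 0.956, 0.837 and 0.273.

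Of 20 receptors of thrombospondins, tenascins and lecticans, 17 were tested, 0 were higher and 1 was lower, with a median of -0.23. The gene that fell was Cd47, which encodes a receptor of thrombospondin-1. Cd47 went from 431 to 363 CPM, from 137 to 112 CPM, from 255 to 213 CPM and from 253 to 205 CPM in pairs 1 to 4. It was lower with Nfib in every pair, although the arms overlap, and fell by 0.28 ± 0.05 on the log2 scale (SE, DESeq2 adjusted p of 7.96e-06), a call that held in 2 of the 4 fits without a pair. The most abundant receptor, the calcium channel subunit and thrombospondin receptor Cacna2d1, had 499 ± 374 CPM and 483 ± 473 CPM (SD, n = 4 each) and did not pass (DESeq2 adjusted p of 0.486).

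Of 13 other hyaluronan-bound proteins, synthases and proteoglycans, 5 were tested and 1 passed. It was Ptprz1, a receptor phosphatase whose secreted form is the brain proteoglycan phosphacan, and also the most abundant of them. Ptprz1 went from 457 to 343 CPM, from 316 to 291 CPM, from 543 to 395 CPM and from 416 to 299.5 CPM in pairs 1 to 4. It was lower with Nfib in every pair and fell by 0.37 ± 0.09 on the log2 scale (SE, DESeq2 adjusted p of 0.00156), which held in 1 of the 4 fits without a pair. The median of the 5 genes was -0.05. Of 21 genes of chondroitin sulfate synthesis, 17 were tested and 0 passed, with a median of -0.06, the most abundant being the sulfotransferase Chst11 (78.4 ± 34.1 and 65.0 ± 46.8 CPM, SD, n = 4 each).

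Of 14 matrix proteases and their inhibitors, 13 were found by symbol and 7 tested, of which 1 was higher and 0 lower, with a median of 0.06. The gene that rose was Adamts9, a metalloprotease that cleaves versican, by 3.08 ± 0.95 on the log2 scale (SE, DESeq2 adjusted p of 0.0345). Adamts9 went from 0 to 1.26 CPM in pair 1, from 0.567 to 1.79 CPM in pair 2, from 0 to 0.259 CPM in pair 3 and from 5.14 to 14.9 CPM in pair 4. It was higher with Nfib in every pair at low levels and passed in 0 of the 4 fits without a pair, in which the log2 fold change was 1.96, 4.66, 2.57 and 4.45 without pairs 1 to 4. The fitted value depends on empty vector libraries at 0 in pairs 1 and 3 and is not a bound. The paired edgeR test gave 2.26 on the log2 scale (adjusted p of 0.247). The most abundant gene of the group, the inhibitor Timp2, had 42.3 ± 7.42 and 49.8 ± 5.74 CPM (SD, n = 4 each). Of 19 other matricellular genes, 6 were tested and 0 passed, with a median of 0.42, and the most abundant, Nov, which encodes the matricellular protein CCN3, had 1066 ± 929 and 789 ± 803 CPM (SD, n = 4 each).

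**Figure D4:**
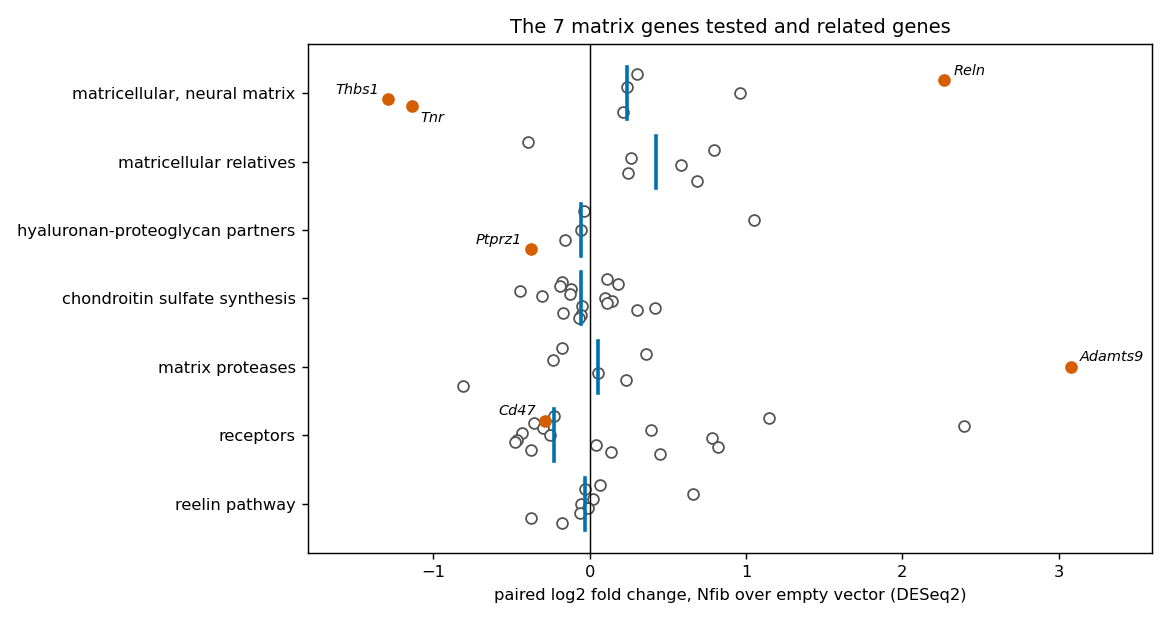
Paired DESeq2 log2 fold change of Nfib over empty vector for the tested genes of the matricellular and neural matrix list and of 6 related lists; filled orange points passed at an adjusted p under 0.05 and are named, open points did not, and blue bars are the median of each list. The 3 named genes of the first row lie farther from 0 than Ptprz1 and Cd47, and Adamts9 lies farthest to the right.

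Markers of other cell types were measured because stromal cells and glia also make several of these proteins. The 11 fibroblast and endothelial markers summed to between 1.74 and 12.3 CPM in empty vector libraries and between 1.65 and 13.6 CPM in Nfib libraries, with Lum at 0 in all empty vector libraries and Col3a1 at 0 in all Nfib libraries. The most abundant was Pdgfra (4.44 ± 5.01 and 3.93 ± 5.54 CPM, SD, n = 4 each). In pair 3, where Thbs1 was 3.22-fold lower with Nfib, this sum was 1.74 CPM with empty vector and 7.33 CPM with Nfib, and in pair 2 it was 12.3 and 9.46 CPM. The endothelial receptor gene Kdr, singled out after its values were seen, went from 0.0371 to 6.47 CPM in pair 3 and from 0.0944 to 5.74 CPM in pair 2. Without Kdr the sum was lower with Nfib in both of these pairs, at 1.71 and 0.862 CPM in pair 3 and at 12.2 and 3.72 CPM in pair 2. It was also lower in pair 1 (2.24 and 1.65 CPM), but higher with Nfib in pair 4 (7.93 and 13.4 CPM). This sum was mostly Pdgfra alone in pair 2 (10.3 and 2.57 CPM) and in pair 4 (6.85 and 12.1 CPM). In pair 3 its empty vector value was mostly Pdgfrb (1.11 CPM, and 0.216 CPM with Nfib), so it describes single genes at low levels. The 5 leukocyte markers found by symbol, of 7, summed to between 1.25 and 2.39 CPM, with Ptprc at 0 in all empty vector libraries and Csf1r at 0 in all Nfib libraries. The most abundant of these was Cd68 (1.65 ± 0.461 and 1.84 ± 0.357 CPM, SD, n = 4 each). The 7 glial markers found, of 8, summed to between 97.8 and 277 CPM, mostly of Mbp (173 ± 60.95 and 174 ± 60.9 CPM, SD, n = 4 each), and Sox10 was at 0 in all empty vector libraries. Aqp4, singled out after its values were seen, went from 11.2 CPM with empty vector to 37.5 CPM with Nfib in pair 2. Its values were 0.949 and 1.96 CPM in pair 1, 4.30 and 3.84 CPM in pair 3, and 0.180 and 0.195 CPM in pair 4. None of these lists had a gene that passed the paired DESeq2 test, and of the 10 neuroendocrine markers, all tested, 0 were higher and 1 was lower. It was Nkx2-1, the lung lineage transcription factor, which fell by 0.39 ± 0.11 on the log2 scale (SE, DESeq2 adjusted p of 0.0122), a call that held in 2 of the 4 fits without a pair. The part of these markers in the values of the matrix genes was not tested.

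Reads from antisense genes could enter some of these values, because no source used here gives the strand setting of the counting. In the GENCODE annotation of GRCm38, antisense transcripts share exon bases with Thbs1 (208), Tnc (176), Tnr (443) and Reln (246). Of these partners, the 1 with an entry in the count table, Gm10475 at Reln, had 1 count in all 8 libraries together. Gm4117, which lies antisense to Vcan without sharing exon bases, had between 8 and 138 counts per library, the highest in both libraries of pair 3, where Vcan was highest too.

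The genes whose pattern was most like each of these were found by Pearson's r of log2 CPM over the 8 libraries, among 12783 genes with a mean of at least 1 CPM. The 8 libraries are 4 pairs from 4 cultures, so that both libraries of a culture share its level, and nothing is said here of shared function or control. For Reln they were Ccdc32 (r = 0.9911) and Zfp637 (0.9892), for Ncan Galk1 (0.9905) and Wdr36 (0.9872), and for Thbs1 Rsbn1l (0.9832) and Fam221a (0.9823). For Tnc they were Ptger4 (0.9804) and Sstr2 (0.9721), and for Tnr, whose values were lower, Cxx1a (0.9217) and Map1a (0.9199). Vcan was nearest to Ppp1cc (0.9590) and Zfp664 (0.9576) and Spock1 to Bag3 (0.9778) and 2210008F06Rik (0.9762). Gabrr2 (0.9661) was among the 2 genes most like Spock2. Among the matrix genes themselves, Ncan and Spock1 had an r of 0.909 and Thbs1 and Vcan one of 0.802, whereas Thbs1 and Spock2 had one of -0.904.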

How the data were processed

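Gene expression was measured in 8 RNA-seq libraries, which per the labels' protocols were made with Illumina's TruSeq RNA kit. The authors deposited raw read counts for Ensembl genes, as whole numbers without normalization, with symbols and coordinates. Per the submitters' processing notes, the build was GRCm38 (mm10) and the tools included TopHat2 2.1 with Bowtie 1.0.0, DESeq2, and SAMtools 0.1.19. Not given in the sources used here are the program that counted reads, whether it used strand, and the annotation release. All 8 value columns were mapped to samples by their labels (0 columns were left unmapped). Titles call the Nfib arm Tumor, and groups follow the source field, where the vector is stated. One further allele that the labels list for all 8 libraries, and some genes that the naming rule gives, are not reported here, while counts and sums over lists include them.

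The genes, the gene lists and the tests were chosen with earlier results of these data known. The test of Nfib against empty vector was edgeR's quasi-likelihood test without a block (edgeR 4.0.16 in R 4.3.3, TMM factors, expression filter by group, Benjamini-Hochberg adjustment over all 13380 genes kept, threshold 0.05). Within-pair change was tested with DESeq2 1.42.0 (Wald test, replicate number as block, unshrunken fold changes, 260 undefined adjusted p kept so), and by edgeR and limma 3.58.1 (voom) with the same block. Same-numbered libraries carry the same line and state in the labels, and deviations from the arm means correlated at r of 0.908, 0.884, 0.935 and 0.929 in pairs 1 to 4 and at 0.0647 or less in every other combination. Taking off the arm means itself lowers r in the other combinations, so their low values are in part built in. Differences between cultures were tested with edgeR (F test and 6 contrasts, arm as covariate). The tests were also run on simulated counts, where the paired DESeq2 test, used here for rose and fell, gave more false calls. Those counts took their spread from edgeR and gave each gene the same Nfib effect in all cultures. They therefore do not give the rate of false calls in these data. Nothing says that a culture was grown or sequenced more than once per arm, and the p-values then reflect only the spread among these samples, which may be technical.

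CPM used TMM-scaled library sizes, and log2 CPM for likeness a prior count of 2. Counting intervals are exact conditional (Clopper-Pearson) intervals at 95% and, like the limit of 3 counts, take in counting error alone, as reads had no molecular identifiers. No fold is given where both libraries held 3 counts or fewer. Exon lengths are unions of GENCODE M21 exons (GRCm38). Named genes were the 10 genes in every library, of the related lists those that passed the paired DESeq2 test and the most abundant tested gene, and the 2 genes nearest in pattern. Alternatives covered the test, block, scaling, filter, threshold and each pair left out.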

Additional observations from a re-analysis of the deposited data

Results flagged for a closer look

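In 7 of the 23 groups of 4 values that were examined, 1 value stood apart from the other 3. Its gap to the nearest value, relative to the group's whole range, was above Dixon's critical value for 4 samples. Not all of the 23 groups were arms of a gene, and arms with very few counts were left out. For normally distributed values chance does this in about 1 in 20 groups, and the rate for CPM of 4 different cultures was not measured. All 7 were found in the CPM of 1 gene in 1 arm, and each was the highest library of its arm.

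The empty vector library of pair 2 (Lmyc3 old) stood apart for Tnc, at 9.96 CPM with the next library at 0.361 CPM, for Reln, at 12.6 CPM with the next at 1.17 CPM, and for Spock1, at 128.6 CPM with the next at 22.3 CPM. For Reln the Nfib library of the same pair also stood apart, at 51.5 CPM with the next at 7.67 CPM. For Thbs1 it was the empty vector library of pair 3 (Lmyc3 new), at 163.5 CPM with the next at 21.9 CPM. For Tnr it was the Nfib library of pair 4, at 70.9 CPM with the next at 25.1 CPM, which was also the pair with the least change in this gene. Bcan stood apart in the Nfib library of pair 1, at 1.83 CPM with the next at 0.195 CPM, a difference between 42 counts and 5 counts.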

How the results depend on the processing

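The 3 calls of within-pair change (Thbs1, Tnr, Reln) depended on the test and on the pairing. With the replicate block, edgeR called 0 of the 7 genes, its bias-adjusted form 1 (Reln, also when set beside the unpaired edgeR result of 0) and limma voom 0. DESeq2 called 0 with no replicate block and 0 with the line as block. Over all genes these fits called 0, 44, 3, 3 and 35, against 543 in the paired DESeq2 test. DESeq2 with the Lmyc3 pairs summed per arm called 2 and with total counts 2, and it called 3 with TMM factors, with either other filter and at a threshold of 0.1. Leaving out each pair gave between 1 and 2 calls: Thbs1 and Reln without pair 1, Thbs1 without pair 2, Reln without pair 3, and Thbs1 and Tnr without pair 4. The unpaired edgeR test called 0 in all 4 such fits, and under other scaling or no filter. Thbs1, Tnr, Ncan, Reln and Spock2 kept their sign in every setting that gave a value, while Spock1 turned to -0.21 with no replicate block and to -0.27 without pair 1, and Vcan to -0.046 without pair 3. Over the fits without a pair, Spock1 lay between -0.27 and 0.62 and Vcan between -0.046 and 0.59. The cause was not tested.

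For the difference between cultures, other settings called 6 or 7 genes, and between 10266 and 10916 of all genes. Tnr was called by the DESeq2 likelihood ratio test, and not by the edgeR settings with all pairs. Leaving out each culture called between 3 and 5 of these genes, with Tnr among them without pair 2, and between 7792 and 8810 of all genes. Empty vector libraries alone allow no test, with 1 library a culture. The interaction called 0 genes of the 7 by both tools. With 4 cultures of 3 named lines, 1 library per arm and wide differences between cultures, differences present in some cultures cannot be told apart from differences between single libraries. Depth limits Thbs2, Tnc, Bcan and, in pairs 1 and 3, Reln.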
